A study of Mus musculus with 2 samples.

Results

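Alveolar fibroblasts were followed in single-cell RNA libraries of mouse lung, 1 from normoxia and 1 after 3 weeks at 10% oxygen. Members were selected on transcripts detected in each cell. They had at least 1 molecule of 2 or more of the matrix genes *Col1a2*, *Col3a1*, *Mfap4* and *Bgn*, and at least 1 molecule of 2 or more of the alveolar genes *Tcf21*, *Npnt*, *Col13a1* and *Ces1d*. They held no molecule of *Ptprc*, the pan-leukocyte gene, and fewer than 2 of the endothelial genes *Cdh5*, *Pecam1*, *Cldn5* and *Egfl7*. Of the 2037 cells that passed the quality limits of 200 to 4000 detected genes and at most 5% mitochondrial molecules, 143 met this gate. They were 128 of 1348 normoxia cells (9.50%, interval 7.98 to 11.2) and 15 of 689 hypoxia cells (2.18%, interval 1.22 to 3.57). Kept cells held a median of 3453 unique molecules in normoxia and 2224 in hypoxia, and the part of this depth in the shares was not tested.

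Both libraries came from C57/B6 mice aged 2 to 4 months, and the labels name no transgene or drug in either group. Dissociated lung cells were depleted of CD45+ leukocytes and CD326+ epithelial cells on magnetic beads before capture by the 10x Chromium 3′ method, so shares of cells describe what was left after depletion. Each molecule is read as a unique molecular identifier (UMI). The members held 704532 UMIs in normoxia and 44981 in hypoxia, and each library is a single sample. Several wild-type animals are described for the hypoxia arm, and the labels do not say how many entered each library or tie cells to animals. With 1 library per condition no test could be made. Levels are UMIs summed over the cells of a group per 1000000 UMIs of that group (CPM), and all intervals are exact 95% intervals that cover counting error only. The libraries shared 1 cell barcode, and no member carried it.

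Alveolar fibroblasts lie in the walls of the air sacs between the epithelium and the capillaries. They lay down interstitial collagen and elastic fibres, anchor both basement membranes and feed growth factors to neighbouring alveolar type 2 cells. *Tcf21* encodes a transcription factor of this lineage, *Npnt* the basement membrane ligand nephronectin, *Col13a1* a transmembrane collagen and *Ces1d* a carboxylesterase. Most are known by platelet-derived growth factor receptor alpha (*Pdgfra*), and some store lipid and retinoids. Adventitial fibroblasts, which sheathe larger vessels and airways, and ductal myofibroblasts, which ring the alveolar duct, are their closest relatives.

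The gate genes describe how members were picked and are no finding. In normoxia *Npnt* and *Bgn* had a UMI in all 128 members, *Tcf21* and *Ces1d* in 97 each and *Col13a1* in 91. In hypoxia *Mfap4* and *Bgn* had a UMI in all 15, *Npnt* in 14, *Ces1d* in 11, and *Tcf21* and *Col13a1* in 9 each. All 4 alveolar genes were seen in 64 normoxia and 4 hypoxia members, 3 in 29 and 5, and exactly 2 in 35 and 6. The members with exactly 2 were shallow, with a median of 2069 UMIs in normoxia and 1110 in hypoxia. Cells just outside the limit, with exactly 1 alveolar gene, numbered 27 in normoxia and 6 in hypoxia. The amine methyltransferase *Inmt*, which the gate did not use, stood at 4063 CPM in normoxia members with exactly 2 alveolar genes, at 2019 CPM in the cells with 1, and at 293 CPM in the 18 cells with none. The limit on endothelial genes removed 33 normoxia and 4 hypoxia cells, and a further 44 and 3 cells met the gate but had more than 5% mitochondrial UMIs.

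The label was checked on 20 alveolar fibroblast markers outside the gate. Of the 19 that could be measured, 17 were at least 2-fold higher in normoxia members than in the 45 other fibroblasts of that library, and none was at least 2-fold lower. The other fibroblasts were cells with 2 or more matrix genes and fewer than 2 alveolar genes. Across all 5179 measured genes 15.8% were at least 2-fold higher and 5.64% at least 2-fold lower, with a median ratio of 1.07. A gene counts as measured where its pooled UMIs, split by the size of the groups, would give the smaller group at least 5. The markers summed to 23555 CPM in members and 4189 CPM in other fibroblasts, a ratio of 5.62 (5.21 to 6.07). The choice by alveolar genes sorts any gene that goes with them to the same side, so these ratios describe the cells and carry no test.

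*Inmt* (chr6:55170626-55175043, GRCm38, minus strand) stood at 6235 CPM in members and at 1384 CPM in other fibroblasts, against 33.7 CPM in endothelial cells. Thinned to 1000 UMIs a cell, 92.0% of normoxia members (104 of 113) and 92.3% of hypoxia members (12 of 13) had an *Inmt* UMI, against 2.84% of normoxia endothelial cells. *Limch1*, which encodes an actomyosin-binding protein, stood at 2126 CPM and 384 CPM, a ratio of 5.54 (4.32 to 7.24). Among cells under 2500 UMIs the *Limch1* ratio was 1.24 (0.843 to 1.85), at 2481 CPM and 2003 CPM. In deeper cells *Limch1* stood at 2109 CPM in members and 151 CPM in other fibroblasts. *Pdgfra* stood at 1705 CPM and 270 CPM, a ratio of 6.32 (4.69 to 8.71), and at 5.57 CPM in endothelial cells. Its ratio was 0.836 (0.455 to 1.56) in cells under 2500 UMIs and 10.6 (7.10 to 16.6) in deeper ones. The highest of these ratios with a UMI on both sides was that of *Wnt2*, a Wnt ligand of the lung mesenchyme, at 22.3, but it rested on 94 UMIs against 1. *Fgfr4*, a fibroblast growth factor receptor, had 75 UMIs in members and 0 in other fibroblasts, at least 5.92-fold higher. The markers that did not pass the fold were *Gpc3* and *Meox2*. *Meox2*, a homeobox gene, was at 133 CPM and 89.9 CPM, with a ratio of 1.48 (0.856 to 2.76). *Scn3b*, also on the list, had 1 UMI in normoxia members and stood at 134 CPM in endothelial cells.

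**Figure D1:**
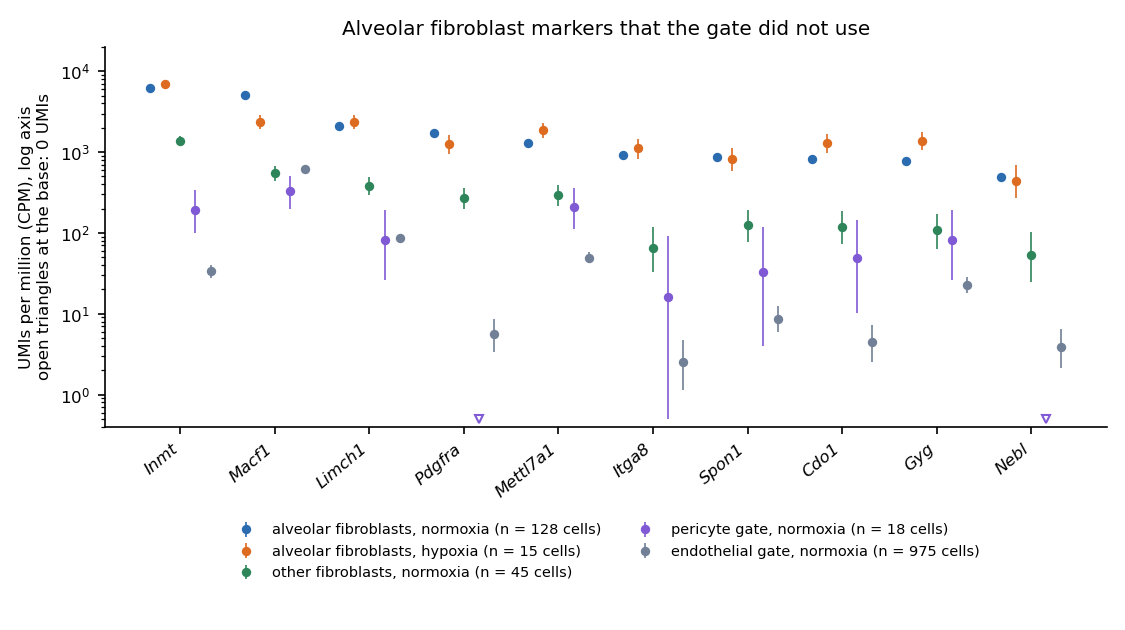
Levels of 10 alveolar fibroblast markers outside the gate, in CPM on a log axis, in 5 groups of cells. Points are CPM of summed UMIs and bars exact 95% Poisson intervals. Members of both libraries lie above the other groups for each gene shown, for example *Inmt* at 6235 CPM in normoxia members and 33.7 CPM in endothelial cells.

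The separation depended on depth. In cells under 2500 UMIs 4 of the markers were both measured and at least 2-fold higher, and 11 in cells with *Malat1* under 1%, in place of 17. Among cells under 2500 UMIs the marker sum was 22054 CPM in 29 members and 13780 CPM in 18 other fibroblasts, a ratio of 1.60, whereas among deeper cells it was 23627 CPM against 2810 CPM, a ratio of 8.41. Shallow cells called other fibroblasts thus carried alveolar markers at a level nearer to that of members than deeper ones did. Exactly 1 alveolar gene was seen in 11 of the 18 shallow and in 16 of the 27 deeper other fibroblasts.

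Genes of ductal and peribronchial fibroblasts were low in members, and adventitial genes were mixed. Of all 5179 measured genes 5.64% were at least 2-fold lower than in other fibroblasts and 15.8% at least 2-fold higher. Of 10 measured genes of ductal myofibroblasts and peribronchial fibroblasts, 9 were at least 2-fold lower than in other fibroblasts and none higher, and the list summed to 625 CPM against 10314 CPM. *Hhip*, an inhibitor of Hedgehog signalling, stood at 148 CPM in members and 4758 CPM in other fibroblasts, 32.2-fold lower. *Aspn*, a small leucine-rich proteoglycan, was at 121 CPM and 2050 CPM, and *Tgfbi*, a matrix protein induced by TGF-β, at 7.10 CPM and 402 CPM. Of 15 measured adventitial genes 8 were at least 2-fold lower and none higher, but the list summed to 15850 CPM against 19501 CPM, a ratio of 0.813, with 1.16 in shallow cells and 1.59 in cells with *Malat1* under 1%. *Pi16*, a marker of adventitial fibroblasts, was at 8.52 CPM and 222 CPM. *Dcn*, which encodes decorin, was at 458 CPM and 4327 CPM, and *Lum*, which encodes lumican, at 7.10 CPM and 977 CPM, 138-fold lower. Across all genes the 10 strongest deficits by counting were those of *Lum*, *Igfbp5*, *Hhip*, *Spock2*, *Tgfbi*, *Pde10a*, *Aspn*, *Mt2*, *Mustn1* and *Pi16*. *Igfbp5*, which binds insulin-like growth factors, was at 42.6 CPM and 1990 CPM. *Gsn* (gelsolin), the most abundant gene of the adventitial list, was the reverse, at 12753 CPM in members and 8456 CPM in other fibroblasts.

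Secreted signals of the alveolar niche differed gene by gene. Of 17 measured growth factors 8 were at least 2-fold higher in members and 4 at least 2-fold lower. Across all 5179 measured genes 15.8% were higher and 5.64% lower by that fold. The growth factor list had a ratio by its sum of 1.25 (0.839 to 1.89) in cells under 2500 UMIs. In deeper cells it had 1.36 (1.21 to 1.54). The higher growth factors included *Angpt1*, a ligand of the endothelial receptor Tie2, at 481 CPM against 132 CPM. *Vegfd*, a lymphatic and endothelial growth factor, was at 342 CPM against 47.9 CPM and *Bmp3* at 338 CPM against 36.0 CPM. *Hgf*, the ligand of Met on epithelium, was at 114 CPM against 24.0 CPM, and *Fgf10*, which signals to epithelial Fgfr2, at 89.4 CPM against 30.0 CPM. *Wnt5a*, a non-canonical Wnt ligand, was lower, at 49.7 CPM against 282 CPM, as was *Igf1* at 131 CPM against 282 CPM. *Fgf7*, keratinocyte growth factor, did not pass the fold, at 217 CPM and 162 CPM (ratio 1.34, interval 0.887 to 2.10).

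Receptors followed the same uneven pattern, with 9 of 21 measured genes at least 2-fold higher and 3 lower. *Itga8*, an integrin subunit that binds nephronectin, was at 927 CPM in members and 65.9 CPM in other fibroblasts, a ratio of 14.1 (7.81 to 28.3). Its ratio was 1.84 (0.693 to 5.71) in cells under 2500 UMIs and 27.6 in deeper ones. Its ligand *Npnt* was used by the gate. *Itga1*, a collagen-binding integrin subunit, was lower, at 219 CPM against 581 CPM. Of 25 measured transcription factors of lung mesenchyme 4 were higher and 1 lower, beside 15.8% and 5.64% of all measured genes. *Tbx4* and *Tbx5*, which mark lung mesenchyme as a whole, stood at 230 CPM against 240 CPM and 182 CPM against 198 CPM.

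Retinoid handling was higher in members, with 5 of 8 measured genes past 2-fold, 1 lower and a median ratio of 2.17. Of all 5179 measured genes 15.8% were at least 2-fold higher and 5.64% at least 2-fold lower. *Aldh1a1*, a retinal dehydrogenase, was at 1448 CPM and 402 CPM. *Lrat*, which esterifies retinol for storage, was at 379 CPM and 53.9 CPM. *Rbp4*, the secreted retinol carrier, was lower, at 22.7 CPM and 120 CPM. Lipid handling was less marked, with 4 of 11 measured genes higher and none lower. *Plin2*, the coat protein of lipid droplets, was at 152 CPM and 53.9 CPM, while *Pparg*, the adipogenic regulator, had 6 UMIs and *Fabp4* had 0 UMIs in normoxia members.

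Structural matrix also differed gene by gene, beside 15.8% of all measured genes at least 2-fold higher and 5.64% lower. Of 13 measured fibrillar collagens and their partners 2 were higher and 2 lower, and *Col1a1* stood at 928 CPM and 737 CPM. *Pcolce2*, an enhancer of procollagen processing, was higher, at 2431 CPM and 875 CPM. Of 14 measured elastic fibre genes 3 were at least 2-fold higher and 3 lower. *Eln* (elastin) was at 857 CPM and 479 CPM, a ratio of 1.79 (1.41 to 2.29). *Efemp1*, a fibulin, was higher at 453 CPM and 126 CPM. The 10 genes with the strongest excess in members by counting were *Scn3a*, *Itga8*, *Fn1*, *Macf1*, *Wisp2*, *Gja5*, *Slc36a2*, *Cdh11*, *Adm* and *G0s2*. *Scn3a*, a voltage-gated sodium channel subunit, had 283 UMIs in members and 1 in other fibroblasts. *Fn1* (fibronectin) was at 852 CPM and 59.9 CPM, and *Cdh11*, a mesenchymal cadherin, at 845 CPM and 83.9 CPM. Among cells under 2500 UMIs their ratios were 3.36 (1.38 to 9.85) and 1.19 (0.404 to 3.93), against 30.9 and 15.8 in deeper ones. *Macf1*, which links microtubules to actin, was at 5159 CPM and 551 CPM, but among cells under 2500 UMIs its ratio was 0.867. That of *G0s2* was 0.769 in the same cells.

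**Figure D2:**
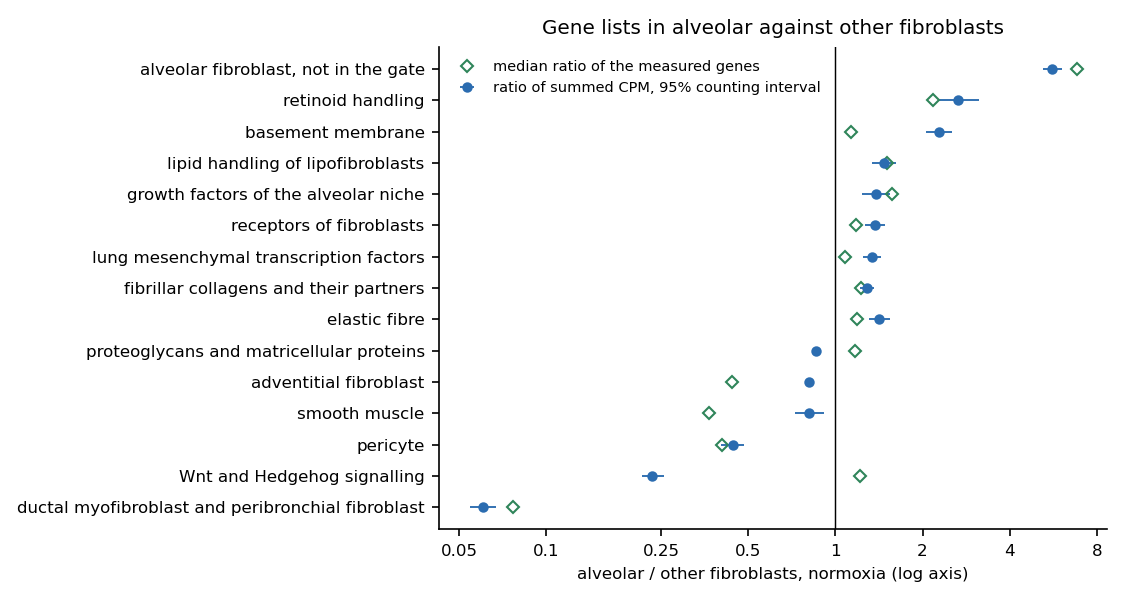
Ratio of alveolar to other fibroblasts in normoxia for 15 gene lists, on a log axis. Filled points are ratios of summed CPM with exact 95% intervals, and open diamonds the median ratio of the measured genes of the list. The marker list outside the gate lies furthest to the right, at 5.62, and the ductal and peribronchial list furthest to the left, at 0.0606.

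Members were not uniform. Of the 128 normoxia members 12 had a UMI of 2 or more of the pericyte genes *Pdgfrb*, *Cspg4*, *Cox4i2* and *Higd1b*, 38 had 1 of them and 78 had none. No hypoxia member had any, in a library with 1 cell in a pericyte gate. In these 12 cells *Pdgfrb*, the receptor that pericytes need for recruitment to vessels, stood at 5256 CPM, against 92.2 CPM in the other 116 normoxia members and 5521 CPM in the 18 cells of a pericyte gate. *Cox4i2*, a cytochrome c oxidase subunit found in pericytes, was at 2496 CPM against 1.59 CPM. These genes chose the 12 cells, and several that did not choose them were also higher. *Postn* (periostin) had 170 UMIs in the 12 cells and 0 in the other 116, and *Spp1* (osteopontin) 180 and 1. *Notch3*, a receptor of mural cells, had 39 UMIs in the 12 cells and 0 in the rest. *Abcc9*, a potassium channel subunit of pericytes, was at 26.4 CPM and 25.4 CPM, and *Rgs5*, a widely used pericyte marker, had 0 UMIs in both and also in the 18 cells of the pericyte gate.

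The 4 most abundant alveolar markers outside the gate were lower in these 12 cells than in the remaining members. *Macf1* was at 3341 CPM against 5378 CPM, *Inmt* at 2918 CPM against 6635 CPM, *Limch1* at 779 CPM against 2288 CPM and *Pdgfra* at 660 CPM against 1830 CPM. All 12 entered through *Tcf21* and *Npnt*, while *Col13a1* was seen in 3 and *Ces1d* in 4. *Inmt* had a UMI in 6 of the 12 against 114 of 116, and *Limch1*, *Pdgfra* and *Itga8* in 4 each against 112, 97 and 97. A few markers were seen as widely in the 12 cells: *G0s2* in all 12 against 91 of 116, *Macf1* in 11 against 109, and *Cxcl14* in 11 against 84. *G0s2* was still at a lower level, 753 CPM against 1458 CPM, and *Cxcl14* at a higher one, 766 CPM against 526 CPM. The alveolar label fits the 116 cells by its markers, and fits the 12 in some markers and not in others. Whether the 12 are mixed droplets was not tested. Their median of 5204 UMIs was close to the 5402 of all normoxia members. Of the 18 cells in the pericyte gate 12 had 2 or more matrix genes and so are also counted among the other fibroblasts.

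**Figure D3:**
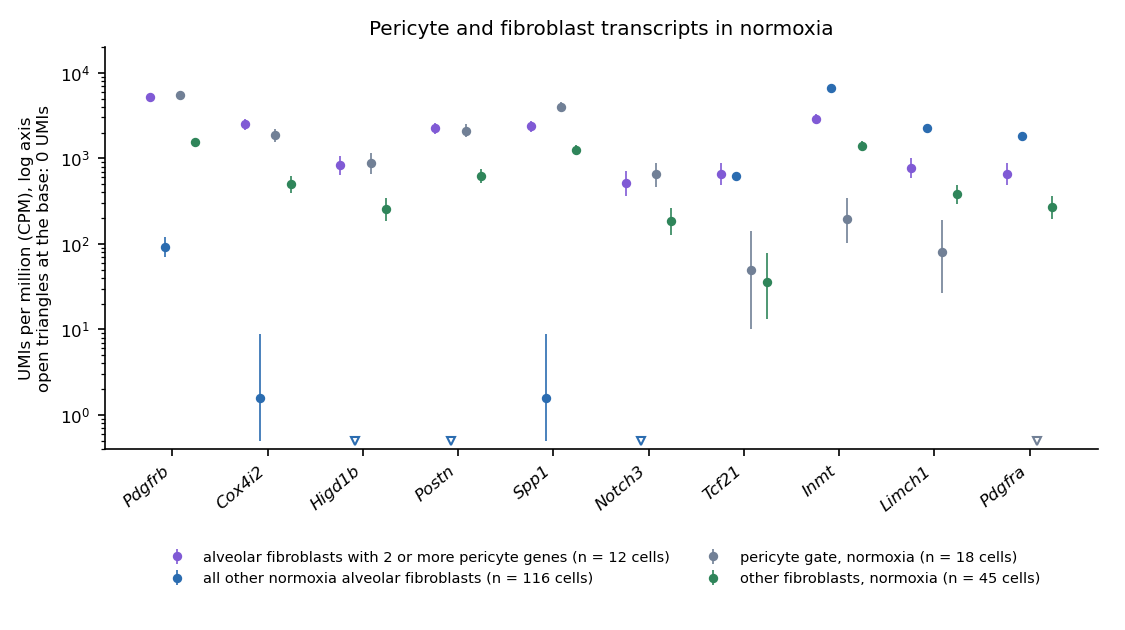
Levels of pericyte genes (left) and fibroblast genes (right) in normoxia, in CPM on a log axis, in 4 groups of cells. Points are CPM with exact 95% Poisson intervals, and open triangles at the base mark 0 UMIs. The 12 members with 2 or more pericyte genes reach the level of the pericyte gate in *Pdgfrb* (5256 and 5521 CPM), and the 116 other members do not (92.2 CPM).

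A wider split ran through both libraries. *Malat1*, a long non-coding RNA retained in the nucleus, made up under 1% of the UMIs in 42 of 128 normoxia members (32.8%, interval 24.8 to 41.7) and in 13 of 15 hypoxia members (86.7%, interval 59.5 to 98.3). All 29 normoxia and all 12 hypoxia members under 2500 UMIs were of this kind, beside 13 and 1 deeper ones. Summed over members, *Malat1* stood at 496 CPM in shallow and 75594 CPM in deeper normoxia cells. The split is not particular to fibroblasts: in the endothelial gate 27.1% of normoxia and 52.8% of hypoxia cells had *Malat1* under 1%. The 10 most abundant genes of normoxia members outside the ribosomal and mitochondrial sets were *Malat1*, *Gm42418*, *Mgp*, *Gsn*, *Inmt*, *Fth1*, *Macf1*, *Fos*, *Fmo2* and *Actb*.

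Depth, *Malat1* and mitochondrial reads thus moved with the condition. The median member held 5402 UMIs in normoxia (543 to 12421) and 2188 in hypoxia (653 to 8965), with 2327 and 1029 detected genes. Median mitochondrial UMIs were 2.83% and 0.905%. In hypoxia 3 cells above 7000 UMIs held 54.6% of all member UMIs. Fewer than 1% mitochondrial UMIs were found in 8 of 15 hypoxia and 3 of 128 normoxia members, and in 326 of 689 and 77 of 1348 kept cells as a whole. Their part in the differences between the libraries was not tested. Values within the depth classes are given for part of the results.

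The genes that varied most between normoxia members, once each cell was thinned to 1000 UMIs, were *Malat1*, *Mgp*, *Gm42418*, *Pdgfrb*, *Fos*, *Spp1*, *Postn*, *Cox4i2*, *Gsn* and *Jun*. They fall into the nuclear RNA, the pericyte genes of the 12 cells, the immediate-early genes *Fos* and *Jun*, the matrix gene *Mgp*, the actin regulator *Gsn* and the unnamed transcript *Gm42418*. *Mgp*, which encodes matrix Gla protein, an inhibitor of calcification, had a variance 26.6 times its mean, and its highest cell held 9.02% of its UMIs. *Spp1* had 28.2% of its UMIs in its highest cell.

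Between the conditions the immediate-early genes differed when members of all depths were summed. These genes switch on within minutes of stimulation and also during tissue dissociation. All 18 measured genes of the 20 on this list were at least 2-fold lower in hypoxia members, with a median ratio of 0.116, or 0.148 with genes of 0 UMIs set to the bound that 3 counts give. Over all 1494 measured genes 17.0% were at least 2-fold lower and 4.42% at least 2-fold higher, with a median ratio of 1.02. The immediate-early list summed to 27471 CPM in normoxia members against 3490 CPM in hypoxia members, which gives a ratio of 0.127 (0.108 to 0.149). In all other kept cells it was also lower, at 25755 CPM and 10069 CPM, a ratio of 0.391 (0.385 to 0.397).

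*Fos*, a subunit of the AP-1 transcription factor, stood at 4741 CPM in normoxia members (3340 UMIs) and 711 CPM in hypoxia members (32 UMIs; ratio 0.150, interval 0.102 to 0.212). Its partner *Jun* stood at 3638 CPM and 534 CPM, a ratio of 0.147 (0.0938 to 0.219). *Egr1*, a zinc finger factor induced by growth factors, had 2238 UMIs in normoxia and 9 in hypoxia. *Btg2*, an antiproliferative gene, had 1730 and 3, a ratio of 0.0272 (0.0056 to 0.0795). *Fosb* (AP-1) had 1050 UMIs in normoxia and 0 in hypoxia, at least 22.3-fold lower, and *Atf3*, a stress-induced factor, had 476 and 0, at least 10.1-fold lower. *Nr4a1*, an orphan nuclear receptor, had 338 and 0, at least 7.19-fold lower. *Dusp1*, the phosphatase that ends MAP kinase signalling, was at 1986 CPM and 267 CPM. *Klf2* had 263 UMIs and 0, at least 5.60-fold lower, against a ratio of 0.789 in all other kept cells, and *Klf4* 162 and 0, at least 3.45-fold lower, against 0.668.

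The immediate-early sum was lower in hypoxia in both depth classes, at 3071 and 1469 CPM in cells under 2500 UMIs (ratio 0.478, interval 0.307 to 0.726) and at 28641 and 5172 CPM in deeper ones, 99 from normoxia and 3 from hypoxia (ratio 0.181, interval 0.150 to 0.215). Within normoxia the deeper cells thus held far more of these transcripts than the shallow ones. In shallow cells alone no gene of the list was both measured and at or under 0.5, and *Fos* rested on 14 and 5 UMIs (ratio 0.564, interval 0.159 to 1.66). In members with *Malat1* under 1% the sum was 11377 CPM and 1203 CPM. A single hypoxia cell of 8965 UMIs held 112 of the 157 immediate-early UMIs of that library (71.3%), and without the deepest member of each library the ratio was 0.0452. Thinned to 1000 UMIs, normoxia members had a median of 14 immediate-early UMIs (0 to 118, n = 113 cells) and hypoxia members 1 (0 to 19, n = 13 cells), and 48 normoxia members (42.5%) lay above the highest hypoxia cell. The libraries overlapped at the low end, where 3 cells of each had 0.

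**Figure D4:**
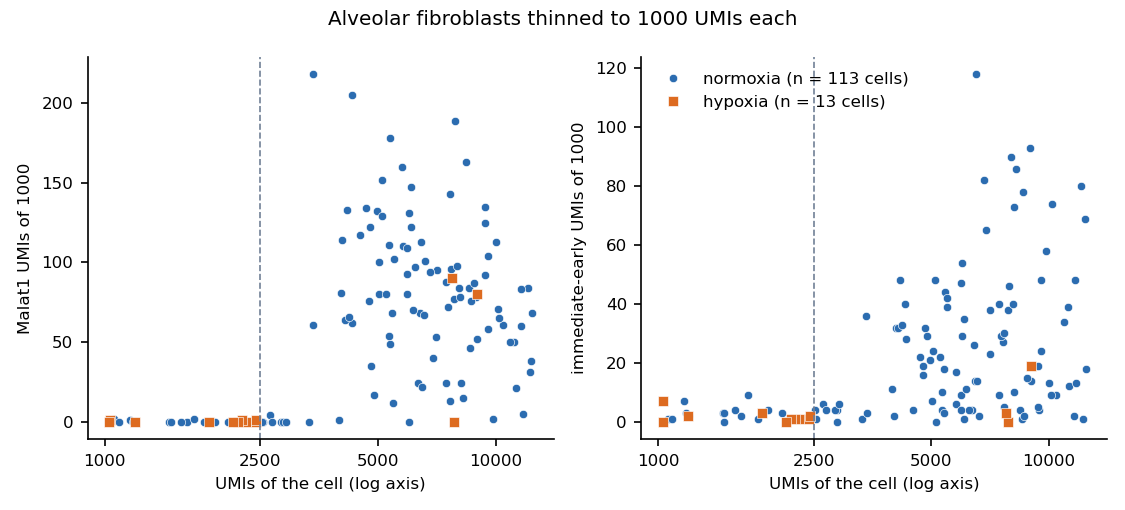
UMIs of *Malat1* (left) and of 20 immediate-early genes (right) in each alveolar fibroblast after thinning to 1000 UMIs, against the UMIs of the cell on a log axis. Circles are 113 normoxia and squares 13 hypoxia cells of at least 1000 UMIs, and the dashed line marks 2500 UMIs. Both quantities lie near 0 to the left of the line in both libraries, and the highest hypoxia cell has 19 immediate-early UMIs against 118 in normoxia.

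Many immediate-early genes answer to the factor CREB, which binds the cAMP response element TGACGTCA or its core TGACG. Promoter windows of 3 genes that were lower in hypoxia members are shown, chosen because they hold the core: *Btg2* for the full element, *Nr4a1* for the most copies of the core and *Fos* as the most abundant gene of the list. The window of *Jun* holds none. The windows are from RefSeq (GRCm38.p6), 5′ to 3′ on the strand of the gene, from 250 bases before to 50 bases after the start. Capitals mark TGACG or its reverse complement CGTCA, and the full element where both overlap. *Btg2* lies at chr1:134079106-134079405 on the minus strand, *Fos* at chr12:85473640-85473939 on the plus strand and *Nr4a1* at chr15:101266596-101266895 on the plus strand.
Btg2: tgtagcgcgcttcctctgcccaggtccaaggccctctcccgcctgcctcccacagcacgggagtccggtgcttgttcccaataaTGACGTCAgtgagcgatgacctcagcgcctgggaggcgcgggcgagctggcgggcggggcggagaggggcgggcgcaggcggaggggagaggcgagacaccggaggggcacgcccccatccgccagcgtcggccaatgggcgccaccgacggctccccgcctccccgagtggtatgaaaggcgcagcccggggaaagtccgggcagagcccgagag
Fos: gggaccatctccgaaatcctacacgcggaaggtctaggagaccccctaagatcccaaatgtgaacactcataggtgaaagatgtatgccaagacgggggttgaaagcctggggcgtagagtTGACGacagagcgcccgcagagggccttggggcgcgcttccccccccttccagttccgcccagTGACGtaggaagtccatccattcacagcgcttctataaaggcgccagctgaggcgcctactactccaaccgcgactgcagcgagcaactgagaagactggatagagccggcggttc
Nr4a1: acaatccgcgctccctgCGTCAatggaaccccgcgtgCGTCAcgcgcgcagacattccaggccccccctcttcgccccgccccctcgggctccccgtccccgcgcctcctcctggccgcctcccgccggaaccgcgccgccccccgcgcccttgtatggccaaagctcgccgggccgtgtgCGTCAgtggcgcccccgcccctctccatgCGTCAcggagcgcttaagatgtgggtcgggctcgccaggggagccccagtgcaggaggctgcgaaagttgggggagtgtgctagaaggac
The core was present on either strand in 13 of 21 windows of 17 genes of the list (61.9%), and in 6837 of 32851 windows of the whole table (20.8%). *Egr2* has several of the 21 windows, and overlapping ones that hold the same 2 copies of the core are each counted. The full element was present in 2 of the 21 (9.52%), those of *Btg2* and *Dusp1*, and in 1.79% of all windows. A match describes letters and not binding.

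Fewer genes were higher in hypoxia, 66 against 254 lower ones, and 40 against 65 with each cell thinned to 1000 UMIs. These counts apply the fold alone, without the interval, and at 10 or more expected UMIs they were 30 and 94. *Mfap4*, a microfibril-associated protein that was also a gate gene, stood at 1821 CPM in normoxia and 8270 CPM in hypoxia, and was higher within shallow cells (ratio 1.83, interval 1.35 to 2.48) and within deeper ones (6.30, interval 5.50 to 7.18). *Mgp* (chr6:136872435-136875823, GRCm38, minus strand) stood at 15145 CPM and 34459 CPM, a ratio of 2.28 (2.16 to 2.40). In shallow cells *Mgp* was at 31515 CPM and 34319 CPM, a ratio of 1.09, and in the deeper cells, 3 of them from hypoxia, at 14360 CPM and 34575 CPM, a ratio of 2.41. *Tmsb4x* (thymosin β4, which binds actin monomers) and *Igfbp7* (a secreted binding protein of vessels and matrix) had ratios of 2.36 and 2.29, with 1.12 and 1.08 in shallow cells. *B2m*, the light chain of MHC class I, was at 677 CPM and 1801 CPM, and at 1365 CPM and 1322 CPM in shallow cells. *Bgn* (biglycan), also a gate gene, was at 1879 CPM and 4313 CPM, with a ratio of 1.10 (0.791 to 1.53) in shallow and 2.87 in deeper cells. *Uqcrh*, a subunit of respiratory complex III, had 176 UMIs in normoxia and 31 in hypoxia (ratio 2.76, interval 1.82 to 4.06), and *Hmgn1*, a nucleosome-binding protein, 135 and 25 (2.90, interval 1.81 to 4.47). In shallow cells their ratios were 1.30 (0.593 to 2.80) and 1.70 (0.741 to 3.93).

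Transcripts of other cells also differed. *Scgb1a1*, the secretoglobin of airway club cells, was at 96.5 CPM in normoxia members and 622 CPM in hypoxia members, a ratio of 6.45 (4.00 to 10.2), against 4.66 in all other kept cells, with 2.48 in shallow and 3.04 in deeper members. The airway list, with 5 of 8 genes seen in normoxia members and 3 in hypoxia members, was 3.59-fold higher by its sum in members and 3.41-fold higher in the rest, while *Tppp3*, its most abundant gene in normoxia members, stood at 111 CPM in both. *Scgb3a2*, *Foxj1* and *Bpifa1* were at 0 in normoxia members. *Gm26870*, an unnamed transcript, was 8.93-fold higher in members and 4.48-fold higher in the rest. The leukocyte list, with 10 of 20 genes at 0 in normoxia members and 14 in hypoxia members, summed to 85.2 CPM and 378 CPM. *Ptprc* was at 0 by the gate, *Tyrobp*, *Cd3e* and *S100a8* were at 0 in normoxia, and *Igkc*, the most abundant gene in normoxia, was at 32.6 CPM and 0. *Cd74* had a UMI in 9 of 128 normoxia and 5 of 15 hypoxia members, and in 43.3% of thinned normoxia endothelial cells. The alveolar type 1 list summed to 683 CPM and 1312 CPM, led by *Emp2* at 470 CPM and 756 CPM, and the alveolar type 2 list to 135 CPM and 267 CPM, led by *Sftpc* at 104 CPM and 200 CPM. The endothelial list, with 19 of 20 genes seen in normoxia and 14 in hypoxia members, summed to 698 CPM and 1245 CPM, with its most abundant gene *Bmpr2* at 211 CPM and 200 CPM. In all other kept cells the endothelial list had a ratio of 0.855, the alveolar type 1 list of 0.933 and the leukocyte list of 1.36. These lay below the values in members of 1.78, 1.92 and 4.44. The alveolar type 2 list had 2.98 against 1.98 in members. In the endothelial gate alone the leukocyte list had 4.03, near the value in members, and the alveolar type 2 list 14.4. The endothelial and alveolar type 1 lists had 0.775 and 0.956 there. In shallow members the endothelial, alveolar type 1 and leukocyte ratios were 2.16, 1.54 and 3.68. In deeper members they were 1.12 (0.667 to 1.77), 1.12 (0.659 to 1.8) and 1.52 (0.304 to 4.69). The share of free RNA in these values was not tested.

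Alveolar identity genes were close in their sum and uneven gene by gene. The markers outside the gate summed to 23555 CPM in normoxia members and to 23054 CPM in those of hypoxia, a ratio of 0.979 (0.918 to 1.04). Of 17 measured markers 2 were at least 2-fold higher and 3 lower, beside 4.42% and 17.0% of all 1494 measured genes. The share of lower markers was thus near that of all genes. *Macf1*, among the lower markers, was at 5159 CPM and 2379 CPM, with a ratio of 0.958 in shallow and 0.558 in deeper cells. The sum had a ratio of 0.841 in shallow and 1.13 in deeper cells. *Inmt* was at 6235 CPM and 6892 CPM (ratio 1.11, interval 0.982 to 1.24), but this hid opposite values by depth: 9616 CPM and 3623 CPM in shallow cells, and 6073 CPM and 9611 CPM in deeper ones. *Limch1* was at 2126 CPM and 2379 CPM, with ratios of 1.42 (1.02 to 1.98) in shallow and 0.676 (0.469 to 0.944) in deeper cells. *Pdgfra* was at 1705 CPM and 1245 CPM (ratio 0.730, interval 0.548 to 0.955), with 0.877 (0.434 to 1.71) in shallow and 0.956 (0.683 to 1.31) in deeper cells. *Cxcl14*, a chemokine, had a ratio of 2.38 (1.77 to 3.13), with 0.947 in shallow and 3.31 in deeper cells. *G0s2*, an inhibitor of the lipase Pnpla2, was lower at 1382 CPM and 445 CPM, with a ratio of 1.21 in shallow cells.

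Matrix lists differed from each other. Of all 1494 measured genes 4.42% were at least 2-fold higher in hypoxia members and 17.0% at least 2-fold lower. None of 11 measured fibrillar collagens and partners was 2-fold higher or lower, in a list that holds the gate genes *Col1a2* and *Col3a1*. Their sum had a ratio of 1.17 (1.08 to 1.27), with 1.40 in shallow and 1.18 in deeper cells. *Col1a1* was at 928 CPM and 1023 CPM, and *Eln* at 857 CPM and 1289 CPM (interval of the ratio 1.13 to 1.97). The elastic fibre list summed to 6030 CPM and 13005 CPM, a ratio of 2.16 (1.97 to 2.35), but 1 of its 10 measured genes passed the fold, the gate gene *Mfap4*, and its median ratio was 1.10. Proteoglycans and matricellular proteins, a list that holds *Mgp* and *Bgn*, summed to 26711 CPM and 48665 CPM (1.82, interval 1.74 to 1.90), with 2 of 13 measured genes higher, 4 lower and a ratio of 1.06 in shallow cells. Among genes linked to fibrosis 2 of 5 measured were lower and none higher: *Postn* and *Spp1*, which in normoxia came from the 12 cells with pericyte genes (100% and 99.4% of their UMIs). All 4 measured pericyte genes were lower too when all depths were summed. In shallow cells the list had a ratio of 1.84 (0.53 to 6.63) by its sum, and *Gucy1a1* of 7.89 (0.883 to 373). *Pdgfrb* had 456 UMIs in normoxia, 87.3% of them in those 12 cells, and 0 in hypoxia. Without those 12 cells, an alternative chosen after the data were seen, the pericyte list had a ratio of 0.621 (0.264 to 1.25) in place of 0.0901 (0.0388 to 0.178). *Adamts1*, a metalloproteinase that trims proteoglycans, had 203 and 1 UMIs, a ratio of 0.0772 (0.00194 to 0.435), against 0.850 in all other kept cells. In shallow cells *Adamts1* had 3 and 0 UMIs, with an upper bound of the ratio of 3.82, and in deeper ones 200 and 1.

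Niche growth factors were within 2-fold in all 11 measured cases. *Angpt1* was at 481 CPM and 600 CPM (ratio 1.25, interval 0.810 to 1.85), *Wnt2* at 133 CPM and 178 CPM (1.33, interval 0.559 to 2.74) and *Fgf7* at 217 CPM and 133 CPM (0.614, interval 0.222 to 1.37). These intervals are wide, since the hypoxia values rest on 27, 8 and 6 UMIs. Of 16 measured mesenchymal transcription factors 6 were at least 2-fold lower and none higher, beside 17.0% and 4.42% of all 1494 measured genes. In shallow cells this list had a ratio of 1.13 by its sum, and in deeper cells 0.875 (0.746 to 1.02).

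Whether the cells carried a transcriptional response to low oxygen was examined on the oxygen-sensing genes. *Epas1*, which encodes HIF2α, stood at 210 CPM in normoxia members (148 UMIs) and 178 CPM in hypoxia members (8 UMIs), a ratio of 0.847 (0.359 to 1.71). In normoxia endothelial cells it was at 3012 CPM. Without the 12 normoxia members with 2 or more pericyte genes the ratio between conditions was 1.43. *Hif1a*, which encodes HIF1α, had 32 and 4 UMIs (45.4 and 88.9 CPM), a ratio of 1.96 (0.503 to 5.52), too few to be measured. Of 7 measured hypoxia target genes none was at least 2-fold higher and 1 was lower, beside 4.42% and 17.0% of all 1494 measured genes. The whole list summed to 2687 CPM and 2201 CPM (ratio 0.819, interval 0.662 to 1.00), with 0.730 (0.481 to 1.09) in shallow and 0.936 (0.715 to 1.21) in deeper cells. In all other kept cells the same list was at 1894 CPM and 2657 CPM, a ratio of 1.40 (1.36 to 1.45). *Adm* (adrenomedullin), the lower gene, had 169 and 1 UMIs, a ratio of 0.0927 (0.00233 to 0.523), with 0.232 in all other kept cells. In shallow cells *Adm* had 2 and 1 UMIs (ratio 0.789, interval 0.0134 to 15.2), and in deeper ones 167 and 0. *Lox*, which crosslinks collagen and elastin, was at 264 CPM and 289 CPM, *Vegfa* at 236 CPM and 133 CPM (ratio 0.566, interval 0.205 to 1.26) and *Gapdh* at 203 CPM and 267 CPM.

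Ribosomal protein genes summed to 67304 CPM and 100265 CPM, a ratio of 1.49 (1.44 to 1.54). Of 80 measured genes 5 were at least 2-fold higher and none lower, beside 4.42% and 17.0% of all 1494 measured genes. Within shallow cells the ratio of the sum was 0.898 and within deeper cells 1.07. Mitochondrially encoded genes were lower in both classes, at 0.402 in shallow and 0.753 in deeper cells, and at 0.518 in all other kept cells. Metallothioneins and antioxidants summed 1.74-fold higher (1.64 to 1.85), with 1.17 in shallow and 1.37 in deeper cells. *Fth1*, the ferritin heavy chain and the most abundant of them, was at 5181 CPM and 10338 CPM, but its ratio was 1.49 (1.29 to 1.73) in shallow and 0.782 (0.629 to 0.961) in deeper cells. *Prdx1*, a peroxiredoxin, had a ratio of 2.33 (1.61 to 3.29) and *Mt1*, a metallothionein, of 0.225 (0.0270 to 0.830). After thinning to 1000 UMIs the ratio of *Mt1* was 1.16 (0.129 to 4.98).

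**Figure D5:**
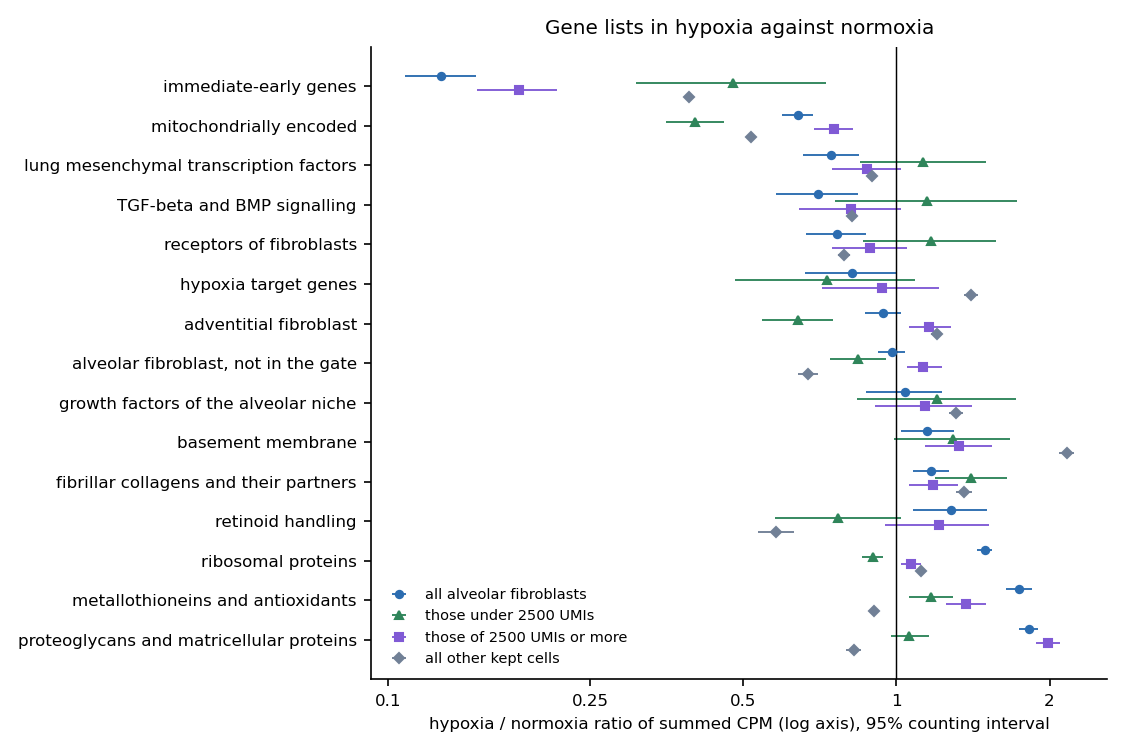
Hypoxia over normoxia ratio of summed CPM for 15 gene lists, on a log axis, in all alveolar fibroblasts, in those under 2500 UMIs, in those of 2500 UMIs or more (3 hypoxia cells) and in all other kept cells. Bars are exact 95% intervals of counting error. Immediate-early genes lie left of 1 in all 4 groups (0.127, 0.478, 0.181 and 0.391), while ribosomal protein genes lie at 1.49 in all members but at 0.898 and 1.07 within the depth classes.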

How the data were processed

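Lung cells of 1 normoxia and 1 hypoxia library were processed by the authors with Cell Ranger (6.1.2 per the file headers, mm10) and Seurat is named in the submitters' notes. The deposited values are raw UMI counts per gene and cell barcode for 31053 features, 7630683 UMIs in 2223 normoxia barcodes and 2685345 in 809 hypoxia barcodes, and no cell labels were used. Barcodes with under 200 or over 4000 detected genes, or with more than 5% of UMIs from mitochondrial genes, were left out. The upper gene limit was the only measure against doublets, and no caller was run.

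Counts were summed over the cells of each group and divided by the group's total. Ratios carry exact conditional binomial intervals, levels exact Poisson intervals and shares Clopper-Pearson intervals, all at 95%. A gene was measured where pooled UMIs times the share of UMIs in the smaller group came to at least 5 (84 pooled UMIs between conditions, 27 between fibroblast groups), and past the fold at 2 or 0.5. The floor was 3 counts per group. For cell by cell values each cell was thinned to 1000 UMIs, which left out 15 normoxia and 2 hypoxia members. The other kept cells are all those outside the members. Depth classes at 2500 UMIs, hypoxia members above 7000 UMIs left out, *Malat1* under 1%, and members without pericyte genes were added after the data were seen. Steps were tested on simulated data.

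Named genes were the gate genes, *Hif1a* and *Epas1*, the 4 most abundant genes of each list and those past the fold, the 10 most different genes each way per comparison, the 5 each way whose ratio elsewhere lay within 1.5-fold of 1, the 10 most variable and the 10 most abundant. Others, among them *Meox2*, *Scn3b*, *Tbx4*, *Tbx5*, *Fgf7*, *Notch3*, *Pparg* and *Fabp4*, were named after their values were seen. A few genes that the rule picks are not reported here. *Aldoa* and *Ccl19* could not be matched to a single feature. Members and gene lists were chosen with earlier results of these data known. Python 3.11.15, numpy 2.4.6, scipy 1.17.1, pandas 2.3.3 and matplotlib 3.10.9 were used. Gene positions follow GRCm38 and promoters RefSeq GRCm38.p6.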

Additional observations from a re-analysis of the deposited data

Results flagged for a closer look

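4 genes were higher in hypoxia members but lower in all other kept cells of the hypoxia library, so that the counting intervals lay on opposite sides of 1. *Mfap4* had a ratio of 4.54 in members and 0.565 elsewhere, and *Bgn* 2.30 and 0.412. Both were used to choose the members. *Mgp* had 2.28 and 0.416, and *Tmsb4x* 2.36 and 0.771. In members under 2500 UMIs the ratios were 1.83 for *Mfap4*, 1.10 for *Bgn*, 1.09 for *Mgp* and 1.12 for *Tmsb4x*, and the deeper class holds 3 hypoxia cells. With 1 library per condition these differences were not tested. The direction elsewhere was not the same in each cell type. The proteoglycan list that holds *Mgp* and *Bgn* had a ratio of 2.77 in the endothelial gate and 0.824 in all other kept cells. The 4 matrix genes of the gate, with *Mfap4* and *Bgn*, had 0.633 and 0.356. The other fibroblasts, which also express matrix genes, made up 3.34% of kept cells in normoxia and 1.16% in hypoxia, and their part in the lower values elsewhere was not tested.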

How the results depend on the processing

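No paired analysis was possible because there is only 1 library per condition. Of 1235 values of 85 gene ratios under the alternatives, 950 lay within the counting interval of the reported value, 263 outside it and 22 turned direction, counted only for ratios past 2-fold whose interval left out 1; *Gja5* has no ratio, having 0 UMIs in other fibroblasts.

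Among cells under 2500 UMIs the hypoxia over normoxia ratio turned for *B2m* (0.969), *Ces1d* (0.715), *Cxcl14* (0.947), *Dnajb1* (1.58), *G0s2* (1.21), *Gucy1a1* (7.89), *Id3* (1.78), *Klf6* (1.26), *Klf9* (3.16), *Rplp0* (0.969), *Thbs1* (2.10), *Zeb2* (1.23) and the pericyte sum (1.84), and the ratio to other fibroblasts for *G0s2* (0.769) and *Macf1* (0.867). Outside that count, *Pdgfra* to other fibroblasts was below 1 there (0.836) and the adventitial sum above it (1.16; 1.59 at low *Malat1*, 1.16 with no endothelial gene and 1.08 with no limit on them), *Epas1* between conditions reached 1.43 without the pericyte-gene members, and *Hif1a* was 0 after thinning. In cells with *Malat1* under 1% of UMIs *Cxcl14* (0.968), *G0s2* (1.13; to other fibroblasts 0.917), *Gpc3* (0.999) and *Gucy1a1* (3.15) turned. With 3 of 4 alveolar genes *Hhip* and *Itga1* turned (1.14 each), and after thinning *Mt1* (1.16). The cause was not tested.

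Genes at least 2-fold above other fibroblasts numbered 820, with 239 after thinning, 400 and 1660 at 10 and 2 expected UMIs, 122 under 2500 UMIs and 210 at low *Malat1*. Those at least 2-fold below numbered 292, with 190 where no endothelial gene was allowed, 533 with no such limit, 69, 124 and 639, 49 and 100. Genes at least 2-fold higher in hypoxia numbered 66, with 40 after thinning and 30 and 267 at 10 and 2 expected UMIs. Those at least 2-fold lower numbered 254, with 107 where no endothelial gene was allowed, 402 with no such limit, 65 after thinning, 94 and 1042 at 10 and 2 expected UMIs, 78 under and 102 from 2500 UMIs, 139 without hypoxia members above 7000 UMIs and 110 at low *Malat1*. Fewer cells or genes enter most of these counts.

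Members were 6.90% of normoxia cells with 3 of 4 alveolar genes, 6.60% with no endothelial gene and 11.9% with no limit on them, and 1.02% of hypoxia cells with no endothelial gene. The alveolar marker ratio of 5.62 was 4.19 at up to 10% mitochondrial UMIs, 6.19 with 3 of 4 alveolar genes, 4.76 with no endothelial gene, 6.21 with no limit, 6.56 from 1000 UMIs, 2.95 as a mean over cells, 4.25 thinned, 1.60 under and 8.41 from 2500 UMIs, and 2.29 at low *Malat1*. The hypoxia target ratio of 0.819 was 0.656 as a mean over cells and 0.627 thinned. The immediate-early ratio of 0.127 was 0.0281 with no endothelial gene, 0.105 as a mean over cells, 0.0452 without the deepest members, 0.478 under and 0.181 from 2500 UMIs, 0.0535 without hypoxia members above 7000 UMIs and 0.106 at low *Malat1*. With 15 hypoxia cells, ratios of genes under 84 pooled UMIs were beyond this depth.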
